A study of Mus musculus with 9 samples.

Results

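Rab GTPases are small GTP-binding proteins that mark the membranes of the cell. In the GTP-bound form each recruits effectors (motors, tethers and lipid kinases) to its own compartment, and so sets where a vesicle buds, travels and fuses. Exchange factors (GEFs) load the GTP, GTPase-activating proteins (GAPs) end the cycle, and escort proteins and GDIs carry the lipid-modified protein between membranes. In the mouse oocyte, Rab3a and the Rab27 proteins are known for the cortical granules, whose release after fertilization blocks further sperm, and Rab11a for the vesicles that carry actin nucleators and move the spindle to the cortex with the motor myosin Vb.

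The Rab genes were taken from the array by name. They were all rows with a single gene symbol made of Rab, a number and at most a letter and a further digit, with 1 row kept per gene, the one with the highest mean over the 9 arrays. This gave 59 of 19938 genes, and all 59 matched the RefSeq gene table. Regulators such as Rab3gap1 and Rab11fip2 are not members by this rule.

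The 9 samples were single metaphase II oocytes of outbred ICR mice, each on its own Affymetrix Mouse Gene 1.0 ST array. All females were 2 months old and had received 10 IU of PMSG, then 10 IU of hCG 46 hours later, and were not mated. The 3 direct lysis oocytes were amplified as crude lysates in the NuGEN lysis buffer, 3 were purified with the Arcturus PicoPure kit and 3 with the Qiagen RNeasy Mini kit. Amplification used the NuGEN Ovation One-Direct kit throughout, and both kits together are called purified RNA below. Each group drew on 3 mice, but the labels do not tie oocytes to mice, so a p-value here reflects only how these 9 cells vary, and 2 cells of a group may come from the same female.

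The values are log2 expression values as normalized by the authors, and the median of all rows was 7.12 to 7.24 on each array. Receptor genes for smell, pheromones and taste (1231 genes) served as background, and the limit of an array was their 95th percentile. It was 7.23 to 7.29 with direct lysis, 7.19 to 7.26 with PicoPure and 7.27 to 7.48 with RNeasy. The limit stands in for a detection call, and a gene under it may still be expressed. Values of different genes come from different probes and are not set against each other as amounts. Of 19 oocyte markers measured, 18 lay above the limit on all arrays, with Figla, above on 8, the exception. Of 17 cumulus and granulosa cell markers, 2 did, Foxl2 and Nr5a2, and 11 lay above on no array. Their mean level was 6.98 to 7.05 with direct lysis, 6.83 to 6.96 with PicoPure and 6.89 to 7.25 with RNeasy. Of 8 blood and immune cell markers, 1 lay above on all arrays and 6 on none.

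A broad set of Rab genes was above background in every oocyte. Of the 59 genes, 28 (47.5%) lay above the limit on all 9 arrays, against 43.1% of all genes, 17 on some arrays and 14 on none, against 35.1% of all genes. The number above the limit per oocyte was 35, 33 and 38 with direct lysis, 38, 35 and 33 with PicoPure and 32, 35 and 32 with RNeasy. The preparations overlapped in this number. The gene nearest to the limit among the 28 was Rab20, which lay 0.01 above it on its lowest array, and nearest among the others was Rab4b, 0.06 under it on its lowest.

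**Figure D1:**
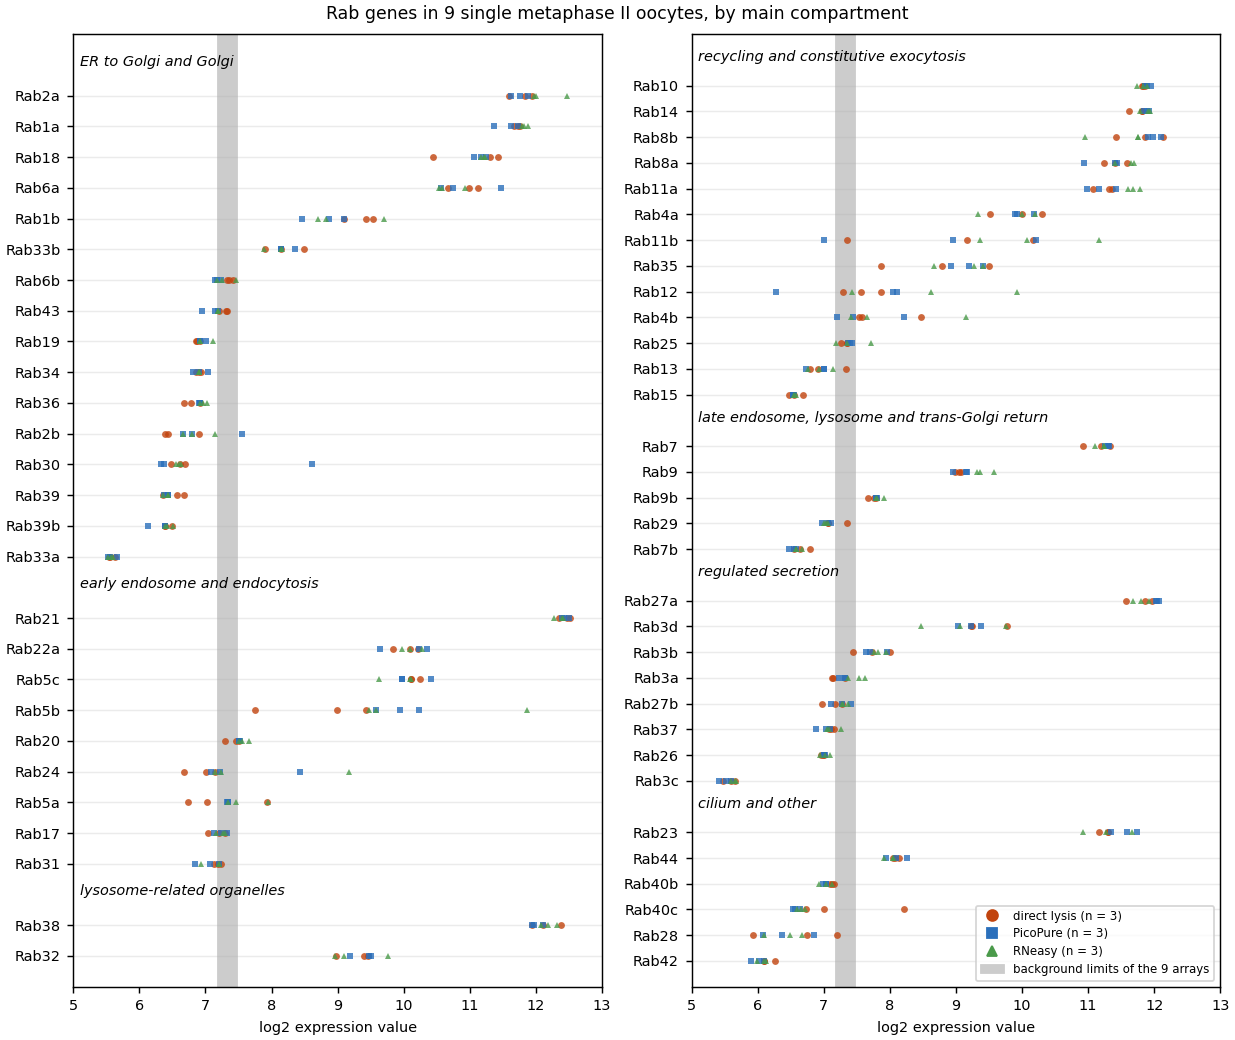
Log2 expression value (x axis) of each of the 59 Rab genes in 9 single oocytes, grouped by the compartment each is mainly known for. Each point is 1 oocyte, and the grey band spans the background limits of the 9 arrays, 7.19 to 7.48. Rab21, Rab38, Rab27a and Rab10 lie far to the right of the band with narrow spreads. Rab5b, Rab12 and the row used for Rab11b are spread widely.

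In the Rab2, Rab6 and Rab33 families of the secretory pathway, 1 paralogue lay above the limit on all arrays and the other did not. Of 16 genes known mainly from the endoplasmic reticulum and Golgi, 6 lay above the limit on all arrays (Rab1a, Rab1b, Rab2a, Rab6a, Rab18 and Rab33b), 4 on some (Rab2b, Rab6b, Rab30 and Rab43) and 6 on none (Rab19, Rab33a, Rab34, Rab36, Rab39 and Rab39b). Rab1a, which drives transport from the endoplasmic reticulum to the Golgi, had 11.76, 11.74 and 11.67 with direct lysis, 11.74, 11.36 and 11.62 with PicoPure and 11.79, 11.88 and 11.82 with RNeasy. Rab6a, which directs transport within and out of the Golgi, had 10.99, 11.13 and 10.67 with direct lysis, 10.57, 10.75 and 11.47 with PicoPure and 10.92, 10.57 and 10.54 with RNeasy. The preparations overlapped for Rab6a, and PicoPure replicate 3 was the highest. Its paralogue Rab6b, known mainly from neurons, stayed between 7.15 and 7.46 and was above the limit on 4 arrays. Rab33b lay between 7.89 and 8.49, while Rab33a stayed at 5.52 to 5.67.

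Among 9 genes of early endosomes and endocytosis, 5 lay above the limit on all arrays (Rab5b, Rab5c, Rab20, Rab21 and Rab22a) and 4 on some (Rab5a, Rab17, Rab24 and Rab31). Rab21, an early endosome Rab that binds integrins, had 12.46, 12.51 and 12.35 with direct lysis, 12.50, 12.39 and 12.43 with PicoPure and 12.27, 12.40 and 12.40 with RNeasy. All 9 values of Rab21 lay within a narrow band, and its residual SD of 0.07 was among the 3 smallest of the 28. The residual SD is the spread between oocytes of 1 preparation, with 6 degrees of freedom. Rab5a, the best studied early endosome Rab, had 7.02, 7.94 and 6.73 with direct lysis, 7.33, 7.34 and 7.32 with PicoPure and 7.47, 7.95 and 7.34 with RNeasy. It was above the limit on 6 arrays and reached its highest values in 1 oocyte each of direct lysis and RNeasy. Rab5c, by contrast, lay between 9.63 and 10.42 on every array.

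Among 13 genes of recycling endosomes and constitutive exocytosis, 7 lay above the limit on all arrays (Rab4a, Rab8a, Rab8b, Rab10, Rab11a, Rab14 and Rab35). Another 5 lay above it on some (Rab4b, Rab11b, Rab12, Rab13 and Rab25) and Rab15 on none. Rab11b was placed by the row used, and its other row lay above the limit on no array. Rab11a, the recycling endosome Rab used for spindle positioning, had 11.36, 11.32 and 11.07 with direct lysis, 11.42, 11.17 and 10.99 with PicoPure and 11.69, 11.78 and 11.60 with RNeasy. Every RNeasy oocyte was above every other one. Rab14, of the Golgi and early endosomes, had 11.82, 11.61 and 11.81 with direct lysis, 11.89, 11.92 and 11.85 with PicoPure and 11.93, 11.91 and 11.79 with RNeasy. The RNeasy oocytes overlapped both other groups for Rab14, while every direct lysis oocyte was below every PicoPure one. Rab8a, which sends vesicles to the plasma membrane, had 11.59, 11.41 and 11.25 with direct lysis, 11.41, 10.94 and 11.43 with PicoPure and 11.70, 11.41 and 11.64 with RNeasy. Rab10, a close relative of Rab8a, had the narrowest range of the 28 genes over the 9 oocytes, 0.21 log2 units.

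Of 5 late endosome genes, Rab7, Rab9 and Rab9b lay above the limit on all arrays, Rab29 on 1 and Rab7b on none. Rab7, which matures late endosomes and lysosomes, had 10.92, 11.20 and 11.33 with direct lysis, 11.31, 11.26 and 11.29 with PicoPure and 11.24, 11.10 and 11.24 with RNeasy. The direct lysis oocytes of Rab7 spanned the purified ones. Both Rabs of lysosome-related organelles such as melanosomes were above the limit on all arrays, Rab38 at 11.94 to 12.38 and Rab32 at 8.95 to 9.76. Of the 6 remaining genes, Rab23, a ciliary regulator of Hedgehog signalling, and Rab44 lay above the limit on all arrays, Rab40c on 1, and Rab28, Rab40b and Rab42 on none.

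Among the 8 genes of regulated secretion, Rab27a stood far above the limit, while Rab27b and Rab3a lay at it. Rab27a had 11.57, 11.86 and 11.96 with direct lysis, 12.02, 12.07 and 12.04 with PicoPure and 11.80, 11.92 and 11.68 with RNeasy. Rab27b had 6.97, 7.28 and 7.17 with direct lysis, 7.12, 7.27 and 7.41 with PicoPure and 7.30, 7.28 and 7.37 with RNeasy, and was above the limit on 3 arrays. Rab3a had 7.14, 7.13 and 7.32 with direct lysis, 7.32, 7.32 and 7.23 with PicoPure and 7.36, 7.53 and 7.62 with RNeasy, and was above the limit on 5 arrays. The largest margin of Rab3a over an array's limit was 0.26. Of the other Rab3 genes, which serve vesicle exocytosis, Rab3d lay at 8.47 to 9.78 and Rab3b at 7.44 to 8.01, above the limit on all arrays, and Rab3c, Rab26 and Rab37 were above it on none. Over the 14 Rab families with more than 1 lettered member here, all members were above the limit on all arrays in 3 (Rab1, Rab8 and Rab9), some in 9 and no member in 2 (Rab39 and Rab40).

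No Rab gene passed the test between any preparations. For crude lysate against purified RNA, 0 of 59 were called (limma, Benjamini-Hochberg over all 19938 genes, two-sided, threshold 0.05), against 1.01% of all genes. At an unadjusted p under 0.05 there were 4 of 59 (6.78%), against 14.2% of all genes. The median difference was -0.01 over the Rab genes and 0.00 over all genes. For PicoPure against RNeasy, 0 of 59 were called, against 0.0602% of all genes, and 5 had an unadjusted p under 0.05 (8.47%), against 7.98% of all genes. The median difference was -0.04 over the Rab genes and -0.03 over all genes. Direct lysis against PicoPure gave 0 called and 1 at the unadjusted threshold, against 0.597% and 12.3% of all genes. Direct lysis against RNeasy gave 0 and 5, against 0.436% and 13.4%. The moderated F test over the 3 preparations gave 0 and 3, against 0.637% and 12.8%. These comparisons share arrays and are not independent of each other. Over all of them the smallest adjusted p of a Rab gene was 0.156, for Rab9 in direct lysis against RNeasy.

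The smallest p for crude lysate against purified RNA belonged to Rab9, which returns receptors from late endosomes to the Golgi. It had 9.05, 9.08 and 8.99 with direct lysis, 9.15, 8.95 and 9.17 with PicoPure and 9.36, 9.32 and 9.57 with RNeasy, so crude lysate and purified RNA overlapped. The difference was -0.21 ± 0.08 SE (limma, adjusted p = 0.295), and -0.08 after a further quantile normalization. Rab3a followed with -0.20 ± 0.08 (adjusted p = 0.307), or -0.13 with values raised to the limit. Rab14 had -0.13 ± 0.07 (adjusted p = 0.424), which became -0.07 without direct lysis replicate 2 and -0.08 after quantile normalization. Rab5b averaged 8.72 ± 0.87 in the 3 crude lysates (SD) and 10.11 ± 0.91 over the 6 purified arrays, a difference of -1.39 ± 0.59 SE (limma, adjusted p = 0.344) that was -0.90 without direct lysis replicate 3. Each crude lysate was below each purified array for Rab5b, and for Rab40c and Rab43 each was above. These were the 3 members without overlap, against 8.02% of all genes. Rab40c had 6.73, 8.22 and 7.00 with direct lysis, 6.53, 6.56 and 6.64 with PicoPure and 6.60, 6.66 and 6.72 with RNeasy, and was above the limit on 1 crude lysate only. Rab43, a Golgi Rab, had 7.32, 7.21 and 7.31 with direct lysis, 6.95, 7.14 and 7.19 with PicoPure and 7.19, 7.19 and 7.19 with RNeasy. It was above the limit on 2 crude lysates only. All 3 RNeasy values of Rab43 and that of PicoPure replicate 3 were exactly 7.18829, against 7.20841 in the lowest crude lysate. With values raised to the limit, the difference of Rab40c was 0.26 instead of 0.70 (0.25 without direct lysis replicate 2), and that of Rab43 was -0.00090 instead of 0.14.

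PicoPure and RNeasy oocytes did not overlap for 8 Rab genes, against 13.9% of all genes. Rab11a had the smallest p, with a difference of -0.50 ± 0.13 SE (11.19 ± 0.22 with PicoPure and 11.69 ± 0.09 with RNeasy, SD, n = 3 each, limma adjusted p = 0.357) and a 95% interval of -0.79 to -0.21. Rab9 had -0.33 ± 0.09 SE, at 9.09 ± 0.12 with PicoPure and 9.42 ± 0.14 with RNeasy (SD, n = 3 each, limma adjusted p = 0.423). Rab2a acts between the endoplasmic reticulum and the Golgi. It had 11.84, 11.94 and 11.59 with direct lysis, 11.63, 11.76 and 11.87 with PicoPure and 11.99, 12.48 and 11.98 with RNeasy. Rab1a, Rab2a and Rab3a were lower in every PicoPure oocyte than in any RNeasy oocyte, with differences of -0.26, -0.40 and -0.21, while Rab27a, Rab8b and Rab7 were higher. The difference of Rab1a was -0.15 without PicoPure replicate 2 and that of Rab2a -0.23 without RNeasy replicate 2. Rab27a differed by 0.25 ± 0.11 SE (12.04 ± 0.02 with PicoPure, 11.80 ± 0.12 with RNeasy, limma adjusted p = 0.645). None of these 8 passed the test over all genes.

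The arrays bounded the differences of most well-measured members. Of the 28 genes above the limit on all arrays, the 95% interval of the difference lay within 2-fold either way for 26 (92.9%) in crude lysate against purified RNA, against 86.0% of all 8597 genes above the limit on all arrays. Rab5b and Rab35 were the exceptions. For PicoPure against RNeasy it lay within 2-fold for 26 genes as well (92.9%, against 81.8%), with Rab5b and Rab8b outside. The interval extended by a median of 0.31 log2 units to each side in the comparison with crude lysate and by 0.36 between the kits.

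**Figure D2:**
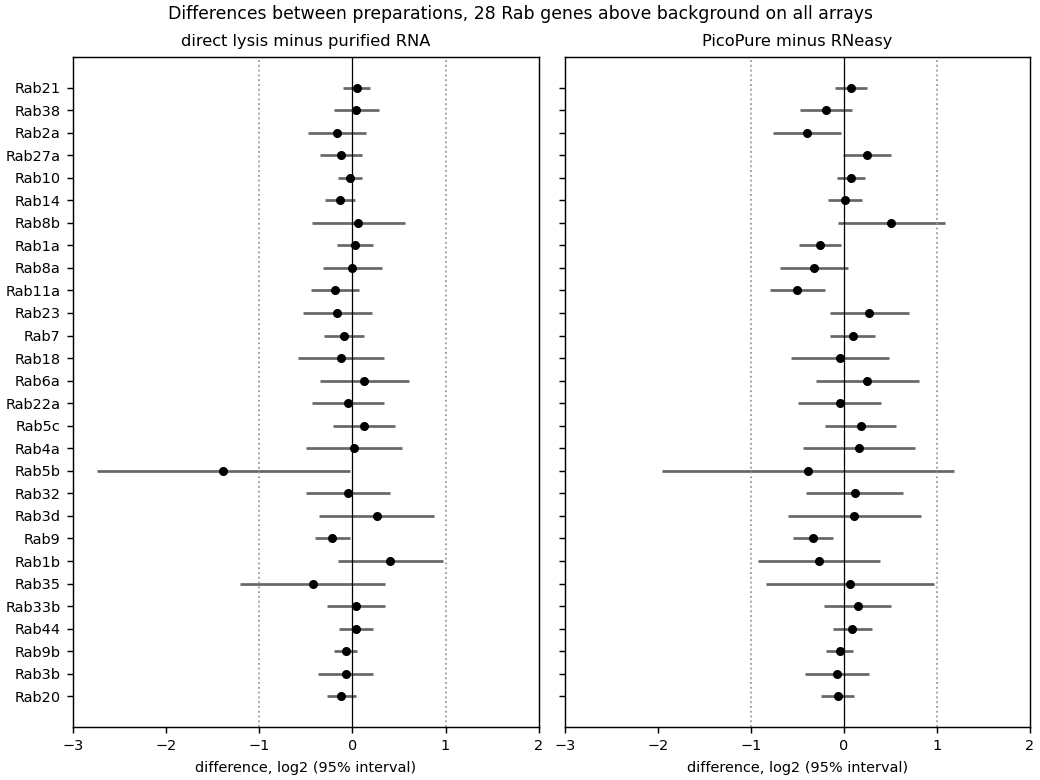
Difference on the log2 scale (x axis, points) with its 95% interval (bars) for the 28 Rab genes above background on all arrays, for direct lysis minus purified RNA (left) and PicoPure minus RNeasy (right). Dotted lines mark 2-fold either way, which all but Rab5b and Rab35 stay within on the left and all but Rab5b and Rab8b on the right.

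A few Rab genes varied widely between single oocytes of 1 preparation. Among the 28 genes the residual SD had a median of 0.21, against 0.19 for all genes above the limit on all arrays. Rab5b had the largest, 0.95, above that of 99.4% of those genes. It had 8.99, 9.43 and 7.74 with direct lysis, 10.23, 9.57 and 9.95 with PicoPure and 9.57, 9.47 and 11.86 with RNeasy, so that RNeasy replicate 3 was the highest and direct lysis replicate 3 the lowest. A second row named Rab5b had 8.75, 9.03 and 7.44 with direct lysis, 9.66, 9.17 and 9.40 with PicoPure and 9.17, 9.17 and 10.89 with RNeasy, with the same oocytes at both ends. Both rows list the same transcripts in the platform's probe table, so they may share signal and are not independent.

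After Rab5b, the largest residual SDs were those of Rab35, Rab3d, Rab1b and Rab4a. Rab35, which serves fast recycling, had 7.87, 9.49 and 8.79 with direct lysis, 9.20, 9.42 and 8.93 with PicoPure and 9.41, 9.27 and 8.66 with RNeasy, and its lowest value was direct lysis replicate 1. Rab3d had 9.23, 9.78 and 9.24 with direct lysis, 9.03, 9.37 and 9.23 with PicoPure and 9.07, 9.76 and 8.47 with RNeasy. Rab1b had 9.53, 9.43 and 9.10 with direct lysis, 8.46, 8.88 and 9.10 with PicoPure and 9.71, 8.82 and 8.70 with RNeasy. All preparations overlapped for Rab35 and Rab3d, and for Rab1b direct lysis and PicoPure met only at 9.10. That was an exactly repeated value, 9.10164 in replicate 3 of both. Rab4a, an early recycling Rab, had 9.99, 10.31 and 9.52 with direct lysis, 10.19, 9.90 and 9.93 with PicoPure and 9.34, 10.19 and 10.00 with RNeasy, and overlapped too. At the other end, the residual SD was 0.05 for Rab9b and Rab10. Rab10 had 11.82, 11.81 and 11.87 with direct lysis, 11.86, 11.95 and 11.89 with PicoPure and 11.83, 11.89 and 11.74 with RNeasy. Rab9b had 7.79, 7.67 and 7.76 with direct lysis, 7.80, 7.79 and 7.79 with PicoPure and 7.79, 7.81 and 7.91 with RNeasy, close above the limit on every array. The exact value 7.78689 recurred in direct lysis replicate 1, PicoPure replicates 2 and 3 and RNeasy replicate 1. These repeats enter the small residual SD of Rab9b.

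The row used for Rab11b, a paralogue of Rab11a, differed between oocytes by up to 4.16 log2 units. It had 10.16, 7.36 and 9.17 with direct lysis, 7.00, 10.21 and 8.96 with PicoPure and 9.36, 11.16 and 10.08 with RNeasy. High and low oocytes occurred in the direct lysis and PicoPure groups, and PicoPure replicate 1 was the one array below the limit. The other row named Rab11b stayed between 6.33 and 7.10 and was above the limit on no array. The rows of Rab11b therefore disagree on whether the gene is above background. The probe table lists 1 transcript for both rows and further sequences for the variable one. Rab2a, the remaining gene with more than 1 row, had 11.59 to 12.48 in the row used and 11.48 to 11.92 in the other. Close copies of these genes could share signal with any of these rows.

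Some members below or near the limit in most oocytes were high in only 1 or 2. Rab30, a Golgi Rab, had 8.62 in PicoPure replicate 1 and 6.33 to 6.69 in the other 8 oocytes. Rab40c, which belongs to a group of Rabs with a SOCS box, was high in direct lysis replicate 2 alone. Rab24, linked to autophagy, had 8.42 in PicoPure replicate 1 and 9.17 in RNeasy replicate 3, and no more than 7.23 in the other 7. Rab12, Rab4b and Rab2b were spread more evenly. Rab12 had 7.86, 7.28 and 7.57 with direct lysis, 8.11, 8.05 and 6.27 with PicoPure and 9.92, 8.62 and 7.42 with RNeasy, and was above the limit on 6 arrays. Rab4b, above it on 7, lay between 7.20 and 9.15 and Rab2b between 6.39 and 7.55. Over the 9 oocytes 14 of 59 Rab genes (23.7%) ranged over more than 1 log2 unit, against 22.9% of all genes. Among those above the limit on all arrays the numbers were 5 of 28 (17.9%), against 33.2% of all such genes.

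**Figure D3:**
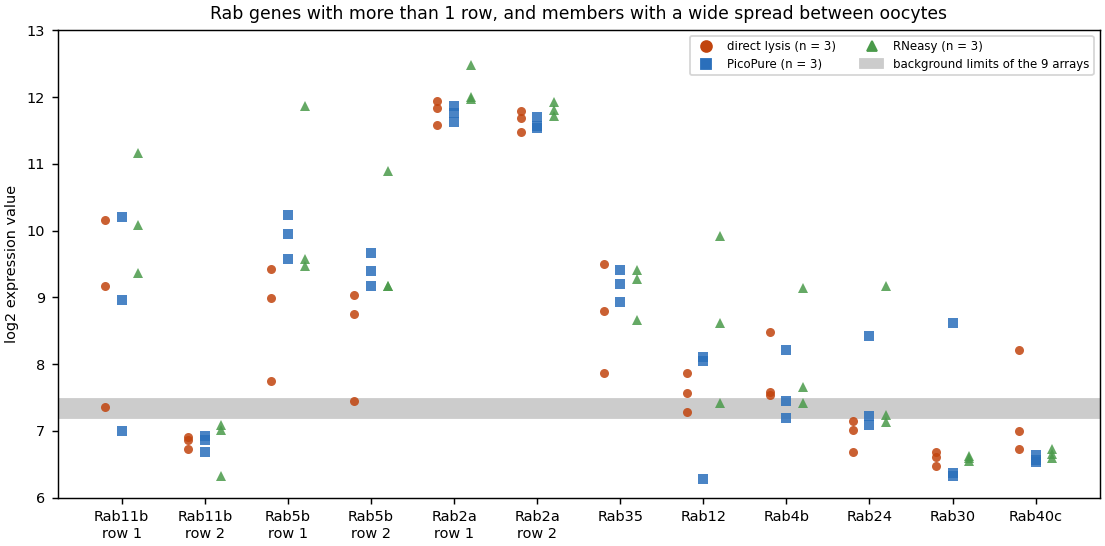
Log2 expression value (y axis) in each of the 9 oocytes for both rows of Rab11b, Rab5b and Rab2a and for 6 genes with a wide spread. The grey band spans the background limits of the 9 arrays. Both rows of Rab5b place the same oocytes at their ends, while only the first row of Rab11b varies, and Rab30 and Rab40c are each high in 1 oocyte.

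**Figure D4:**
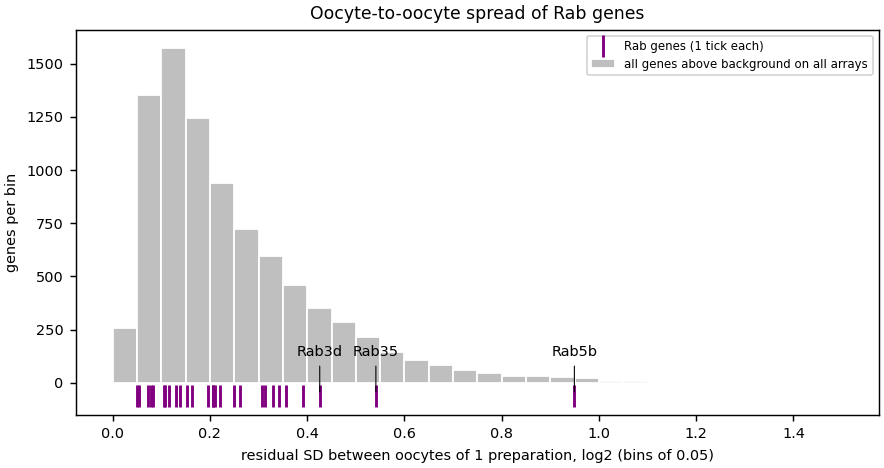
Residual SD between oocytes of 1 preparation (x axis, log2 units) for all 8597 genes above background on all arrays (grey bars, genes per bin of 0.05) and the 28 such Rab genes (ticks). Most Rab genes lie in the body of the distribution, with a median of 0.21 against 0.19, and Rab5b lies in its tail at 0.95.

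The sequence before the start site was compared with whether a gene was above background. RefSeq promoters of the mouse assembly GRCm38.p6 were found for 48 of the 59 genes. The motif counted was the dinucleotide CG in the 250 bases upstream of the start, and where a gene had several starts the one with the most was used. The motif reads the same on both strands. CG-rich promoters are common in broadly expressed genes. The Rab genes above the limit on all arrays had a median of 20.0 CG (n = 23), those above it on some arrays 20.0 (n = 15) and those above it on none 9.5 (n = 10). At least 10 CG were held by 87.0% of the promoters of genes above on all arrays, 73.3% of those above on some and 50.0% of those above on none. The shares were 77.3% for all genes above the limit on all arrays, 29.2% for those above it on none and 57.6% for all 15563 genes with a promoter. The classes overlapped: Rab15, above on no array, had 27 CG, and Rab3b and Rab32, above on all, had 6 and 5. Rab9, also above on all, had 7. Rab11b was classed by the row used.

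The promoters of 5 genes are shown because they carry contrasts described above: Rab21, above background with a narrow spread, Rab27a and Rab3c, on either side of background among the secretion Rabs, and the paralogues Rab11a and Rab11b. Each line gives the 100 bases directly upstream of the start, 5′ to 3′ on the gene's strand, with CG in capitals. They lie at chr10:115315592-115315691 (minus strand) for Rab21, chr9:73044710-73044809 (plus) for Rab27a, chr13:110280207-110280306 (minus) for Rab3c, chr9:64737757-64737856 (minus) for Rab11a and chr17:33760487-33760586 (minus) for Rab11b, in GRCm38.p6. The starts are those of the RefSeq promoter table, and for Rab21 and Rab3c they lie inside the span that the RefSeq gene table gives the gene, which begins further upstream.
Rab21: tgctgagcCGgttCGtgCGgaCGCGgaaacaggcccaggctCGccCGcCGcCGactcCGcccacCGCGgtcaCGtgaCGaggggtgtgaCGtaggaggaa
Rab27a: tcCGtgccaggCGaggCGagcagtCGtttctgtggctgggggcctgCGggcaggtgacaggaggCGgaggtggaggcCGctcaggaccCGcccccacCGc
Rab3c: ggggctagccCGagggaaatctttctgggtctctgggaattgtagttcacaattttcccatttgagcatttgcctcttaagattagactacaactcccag
Rab11a: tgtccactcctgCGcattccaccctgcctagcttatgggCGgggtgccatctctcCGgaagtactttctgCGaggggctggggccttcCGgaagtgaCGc
Rab11b: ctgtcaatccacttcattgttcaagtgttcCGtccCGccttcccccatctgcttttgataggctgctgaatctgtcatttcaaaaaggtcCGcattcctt
These 100 bases hold 15 CG for Rab21, 9 for Rab27a, 1 for Rab3c, 6 for Rab11a and 3 for Rab11b. The same windows of Rab15, above the limit on no array, and of Rab3a are not shown and held 11 and 8. Over 250 bases Rab3b, above the limit on all arrays, held 6 CG and Rab3c 7. The counts describe these windows and say nothing of which factor acts there.

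**Figure D5:**
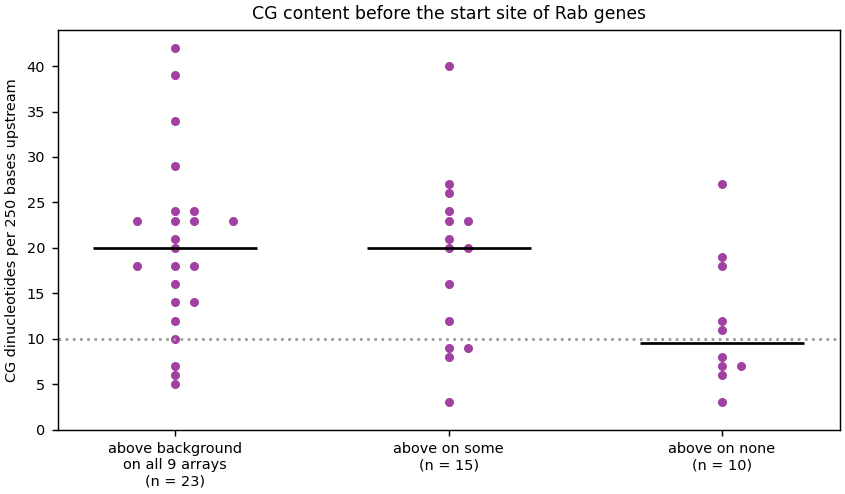
Number of CG dinucleotides in the 250 bases upstream of the start site (y axis) for 48 Rab genes, by whether the gene was above background on all 9 arrays, on some or on none. Each point is 1 gene, black lines are medians (20.0, 20.0 and 9.5) and the dotted line marks 10.

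Regulators and effectors of the Rabs were also measured. Of 10 escort, prenylation, GDI and other Rab chaperone genes, 7 lay above the limit on all arrays, against 43.1% of all genes. The escort genes Chm and Chml were not among them and lay above it on 0 and 2 arrays. Above it on all arrays were also 22 of 35 exchange factor genes, 25 of 42 GAP genes, 32 of 44 effector genes and 5 of 6 Rab-like GTPase genes. Gdi2, a GDP dissociation inhibitor that recycles Rabs from membranes, lay between 11.58 and 11.79, and Myo5b, the Rab11 motor, between 11.39 and 11.76. In crude lysate against purified RNA 1 of these genes was called higher, against 0.341% of all genes, and 0 lower. It was Rab3il1, an exchange factor for Rab3a and Rab8, with 9.34, 9.24 and 9.06 with direct lysis, 8.68, 8.49 and 8.67 with PicoPure and 8.59, 8.48 and 8.68 with RNeasy. Each crude lysate was above each purified array, and the difference was 0.62 ± 0.08 SE (limma, adjusted p = 0.0209). The call was lost under 7 of 16 alternatives, among them trend and robust fitting (adjusted p = 0.0592), the replicate block (adjusted p = 0.0737) and the fits without direct lysis replicate 2, PicoPure replicate 1 or 2, or RNeasy replicate 1 or 2 (adjusted p 0.0524 to 0.0662). Among genes that did not pass, the effector gene Cep290 had -1.20 and the exchange factor gene Sbf2 -1.15 (limma, adjusted p = 0.0742 and 0.0915). The effector genes Rab11fip2 and Eea1, for Rab11 and Rab5, had -1.06 and -0.35 (adjusted p = 0.102 and 0.109). The GAP gene Rabgap1l had -0.50 (adjusted p = 0.107). Rab11fip2 averaged 6.96 with direct lysis, under the limit, and was above it on 7 arrays. Sbf1 and Tbc1d22a went the other way (0.38 and 0.26). The median difference was 0.01 over the exchange factor genes, 0.09 over the GAP genes and -0.03 over the effector genes.

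Between both kits 1 of these genes was called higher with PicoPure, against 0.0401% of all genes, and 0 lower. It was Wdr44, whose protein binds Rab11, with 8.75, 8.47 and 8.70 with PicoPure and 7.78, 7.80 and 7.87 with RNeasy (difference 0.82 ± 0.08 SE, limma adjusted p = 0.0207). Direct lysis averaged 8.36, against 8.64 with PicoPure and 7.82 with RNeasy. The PicoPure oocytes all lay above the RNeasy ones for Wdr44. Its call was lost under 11 of 17 alternatives, among them trend and robust fitting (adjusted p = 0.0933), the replicate block (adjusted p = 0.111), only the arrays of both kits (adjusted p = 0.133) and the fits without any one array other than direct lysis replicate 2 (adjusted p 0.0623 to 0.105). Tbck and Rab3gap2, which did not pass, had differences of 0.99 and 0.43 (limma, adjusted p = 0.287 and 0.348). Tbck averaged 6.83 with RNeasy, under the limit, and was above it on 6 arrays. In direct lysis against RNeasy, 1 effector gene and 1 exchange factor gene were called higher, against 0.436% of all genes in either direction. In direct lysis against PicoPure, 1 exchange factor gene was called higher, against 0.597%.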

How the data were processed

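Each sample was 1 oocyte on 1 Affymetrix Mouse Gene 1.0 ST array, with 3 oocytes in each of 3 groups taken from the sample titles. The deposited table holds log2 values by the authors, 35556 rows by 9 arrays with 0 missing values. The submitters' processing notes name GCOS, Affymetrix Expression Console and GCRMA without versions. The log2 scale was read from the values (2.41 to 13.90), and no genome build is named. Scanner files were not used here, and the normalization was kept. Of the rows, 21789 had 1 gene symbol, 1621 several and 12146 none. Exactly repeated values occurred in 30 of 59 Rab genes and 54.9% of all genes.

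The linear model (lmFit and eBayes in limma 3.58.1, under R 4.3.3) was fitted once over all 9 arrays and 19938 genes. It was first run on simulated independent normal values with known shifts, which lack the repeated values and any shared mice of these data. The members and lists were chosen with earlier results of these data known. Values in every array are given for the 6 members with the smallest p in the comparison of crude lysate with purified RNA and of both kits, the 5 largest and 3 smallest residual SDs and 10 fixed genes. Those 6 were taken among members above background on average in at least 1 group. This left out Rab36 in crude lysate against purified RNA (limma, unadjusted p = 0.0525), under the limit on all arrays. Rab12, Rab24, Rab30, Rab40c and the other wide-ranging genes were named after their values were seen. The labels do not say whether oocytes of the same number belong together. Over 8597 genes, deviations from the group means correlated at -0.07 to 0.11 between arrays of the same number. Between arrays of other numbers they correlated at -0.09 to 0.14. These values cannot show whether oocytes of the same number shared a mouse, so the fit was also run with the number as a block. The number of arrays limits the precision.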

Additional observations from a re-analysis of the deposited data

Results flagged for a closer look

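In 11 of 59 Rab genes (18.6%) 1 of the 9 oocytes stood apart from the rest by more than Dixon's 95% critical value for 9 samples, 0.493 of the range. Chance flags about 1 in 20 groups of independent normal values. Of all genes 18.0% were flagged in the same way, and of those above background on all arrays 14.3%, the same share as for the Rab genes above it (4 of 28). The 9 oocytes span 3 preparations.

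Of the genes above background on all arrays, Rab14 was lowest in direct lysis replicate 2 at 11.61 (next value 11.79), Rab18, a Rab of the endoplasmic reticulum and lipid droplets, in direct lysis replicate 3 at 10.44 (next 11.07), and Rab1a in PicoPure replicate 2 at 11.36 (next 11.62). Rab2a was highest in RNeasy replicate 2 at 12.48 (next 11.99). Of the genes above background on some arrays, Rab30 was highest in PicoPure replicate 1 at 8.62 (next 6.69), Rab40c in direct lysis replicate 2 at 8.22 (next 7.00), Rab25 in RNeasy replicate 3 at 7.71 (next 7.43) and Rab29 in direct lysis replicate 3 at 7.35 (next 7.11), while Rab43 was lowest in PicoPure replicate 1 at 6.95 (next 7.14). Rab15, highest in direct lysis replicate 2 at 6.68, and Rab39b, lowest in PicoPure replicate 1 at 6.13, were below background on all arrays.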

How the results depend on the processing

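No Rab gene was called in any comparison under any of the 16 or 17 alternatives run for it: a further quantile normalization, median centring, a filter on level, values raised to background, the mean of a gene's rows, a variance trend with robust fitting, only the arrays compared, the replicate number as a block, and each array left out. With the replicate block 0 Rab genes were called in all 5 comparisons, and all genes called for crude lysate against purified RNA numbered 25 instead of 201. That count of all genes was 24 to 232 with single arrays left out (24 without RNeasy replicate 1), and for PicoPure against RNeasy it was 0 to 15 instead of 12. The cause was not tested. The smallest adjusted p of a Rab gene over the alternatives was 0.105. The 12 differences named kept their sign, except Rab43, at -0.00090 with values raised to background. Rab40c and Rab43 could not be fitted under the filter on level, which removes them. The difference of Rab5b was -1.74 to -0.90 and that of Rab40c 0.25 to 0.99 with single arrays left out, that of Rab14 -0.17 to -0.07, and between the kits that of Rab1a -0.34 to -0.15 and of Rab2a -0.48 to -0.23. The alternatives for Rab3il1 and Wdr44 were added after seeing the data; their differences stayed at 0.55 to 0.73 and 0.73 to 0.91, and 9 of 16 and 6 of 17 fits called them. The number of Rab genes above background on all arrays was 36 with the 90th and 21 with the 99th percentile as the limit. It was 28 or 29 with single arrays left out, and their median residual SD was 0.17 to 0.22.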
